A study of Mus musculus with 6 samples.

Results

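The genes described here are epithelial and carcinoma surface genes of oral squamous cell carcinoma in the mouse, with 1 secreted protease inhibitor of squamous epithelium among them. They were chosen by symbol from a list of 9, of which 8 stood in the deposited table of 770 genes: Cdh1, Epcam, Muc1, Itga6, Itgb4, Cd44, Mst1r and Spink5. Cd24a was not analysed here. The tumours were induced with 4NQO, a chemical carcinogen that acts on the oral mucosa, and RNA came from formalin-fixed, paraffin-embedded primary tumours. One group of 3 samples was labelled Vehicle and the other group of 3 agonistic anti-CD40, an antibody that activates CD40 on antigen-presenting cells; carcinogen exposure was common to both, and the labels used here give no strain background, age, dose or time. They do not say that the samples are separate animals, so p-values here rest on a spread between samples that may be technical.

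Squamous epithelium is a layered sheet. Basal cells hold on to the basement membrane through hemidesmosomes, whose core is the integrin heterodimer of the α6 and β4 chains, and neighbouring cells hold on to each other through adherens junctions built on E-cadherin. Cells that leave the basal layer mature towards a barrier surface in which proteases and their inhibitors control shedding. Carcinoma cells often change this set of surface proteins, which is why several of them serve as tumour markers.

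Values are deposited log2 normalized counts. Differences are anti-CD40 minus vehicle on that scale, so a difference of −1 is a halving of the value under the logarithm. Errors are SD with n = 3 per group unless named otherwise. The whole counts behind the values summed to between 333400 and 578598 per library. Background was taken as the mean of 8 negative controls plus 2 SD, which lay between 5.57 and 6.52 log2, highest in vehicle 2. Of the 8 genes, 6 were above it in all libraries, and Cd44 and Muc1 in 5 of 6. Cdh1, Itga6 and Itgb4, which mark epithelium, were above it in every library. Keratin genes were not analysed here.

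The comparison addressed how tumour gene expression differed after agonistic anti-CD40. Of the 8 genes, 7 had a lower mean in anti-CD40 tumours, where 45.5% of all 770 genes did, and their median difference was −0.37 beside 0.038 over all genes. None passed the test: limma across all genes called 0 of the 8 at an adjusted p of 0.05, and 0% of the 770, with 3.25% of all genes and none of the 8 at an unadjusted p under 0.05. Limma-voom on the recovered counts also called 0 of 770, with 31 at an unadjusted p under 0.05. Groups without overlap were found for 1 of the 8, Cdh1, in the lower direction, in which 3.51% of all genes had them. The median difference was −0.21 without anti-CD40 1 and −0.24 without vehicle 3.

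**Figure D1:**
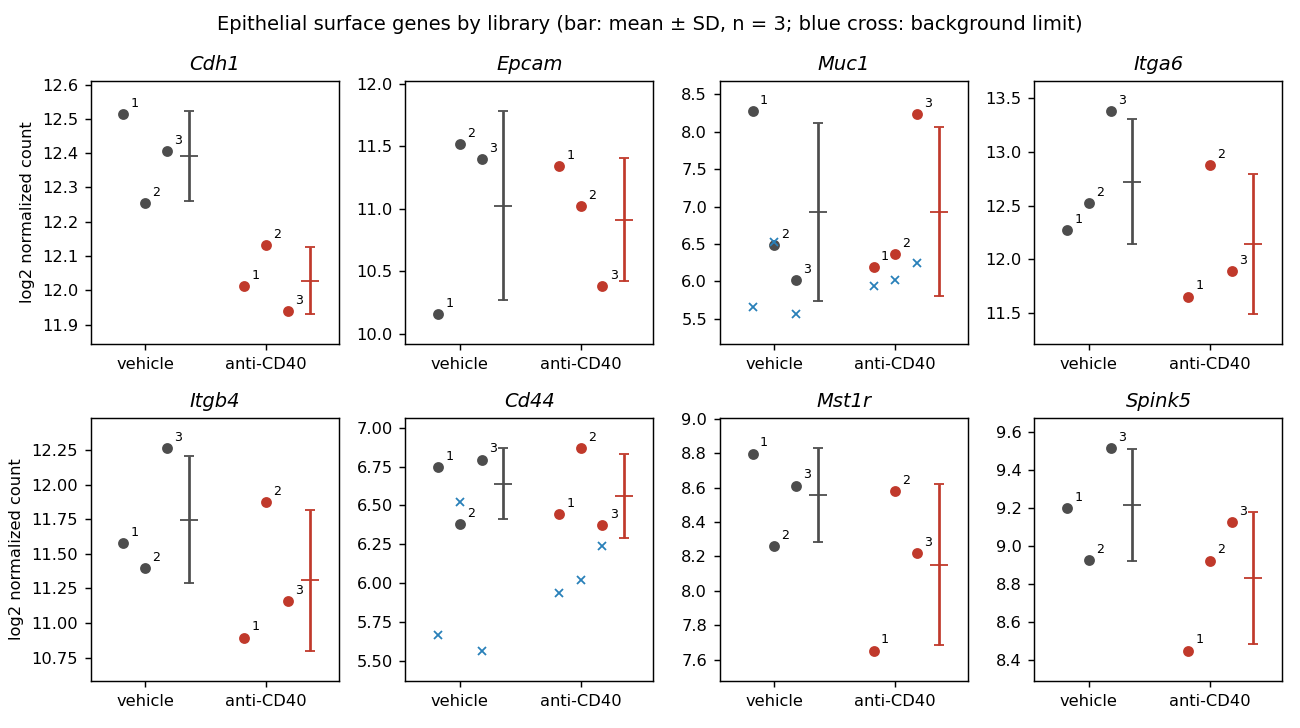
Log2 normalized counts of the 8 epithelial surface genes in each library, vehicle in grey and anti-CD40 in red, with replicate numbers beside the points and mean ± SD (n = 3) at the right of each group. The vertical axes differ between genes and do not start at 0; blue crosses mark the background limit of each library for Muc1 and Cd44. Cdh1 is the gene whose groups do not overlap, and Muc1 splits each group into 1 high and 2 low libraries.

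Cdh1 encodes E-cadherin, the calcium-dependent adhesion molecule of epithelial adherens junctions. It was 12.51, 12.25 and 12.41 in vehicle replicates 1, 2 and 3, against 12.01, 12.13 and 11.94 in anti-CD40 replicates 1, 2 and 3. Values of the other genes follow in the same order. Every anti-CD40 library thus lay below every vehicle library. The means were 12.39 ± 0.13 and 12.03 ± 0.10, a difference of −0.36 (SE 0.21, 95% confidence interval −0.85 to 0.12, limma adjusted p = 0.974). With 1 library left out the difference stayed between −0.43 and −0.30. Cdh1 varied little for a gene of this panel: its SD over the 6 libraries was 0.22, beside a median of 0.35 over the 523 genes above background in all libraries.

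Itga6 encodes the integrin α6 chain, which pairs with β4 in hemidesmosomes and with β1 elsewhere, including on endothelium. It was 12.27, 12.52 and 13.38 under vehicle, against 11.66, 12.88 and 11.89 under anti-CD40. Vehicle 3 was the highest and anti-CD40 1 the lowest, and the groups overlapped through anti-CD40 2. The difference was −0.58 (SE 0.42, 95% confidence interval −1.56 to 0.40, limma adjusted p = 0.974). Leaving out vehicle 3 made it −0.25, leaving out anti-CD40 1 −0.34 and leaving out anti-CD40 2 −0.95.

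Itgb4 encodes the β4 chain, which pairs with α6 alone and links it to the keratin network. It was 11.58, 11.40 and 12.26 under vehicle, against 10.89, 11.88 and 11.16 under anti-CD40. The highest and the lowest library were again vehicle 3 and anti-CD40 1, and anti-CD40 2 again lay within the vehicle range. The difference was −0.44 (SE 0.35, 95% confidence interval −1.26 to 0.38, limma adjusted p = 0.974), and −0.18, −0.23 and −0.72 without vehicle 3, anti-CD40 1 and anti-CD40 2.

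The 2 subunit genes followed each other more closely than either followed any other gene. With each gene's own mean taken off, their profiles over the 6 libraries lay 0.18 log2 apart as a root mean square, and each was the nearest of 522 genes to the other. The gap between them, log2 Itga6 minus log2 Itgb4 within a library, was 0.69, 1.13 and 1.11 under vehicle, against 0.76, 1.003 and 0.74 under anti-CD40. These gaps overlapped between groups, and their means differed by −0.14 (exact permutation test, two-sided, p = 0.4, where 3 against 3 cannot go below 0.1). After Itgb4, the genes nearest to Itga6 were Plau, which encodes the urokinase plasminogen activator (0.19), Cd276, which encodes the checkpoint molecule B7-H3 (0.26), and Hif1a, the hypoxia-regulated transcription factor (0.28). After Itga6, those nearest to Itgb4 were the interleukin 1 receptor accessory gene Il1rap (0.20), the receptor gene Notch1 (0.22) and the peptidoglycan sensor gene Nod2 (0.22).

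**Figure D2:**
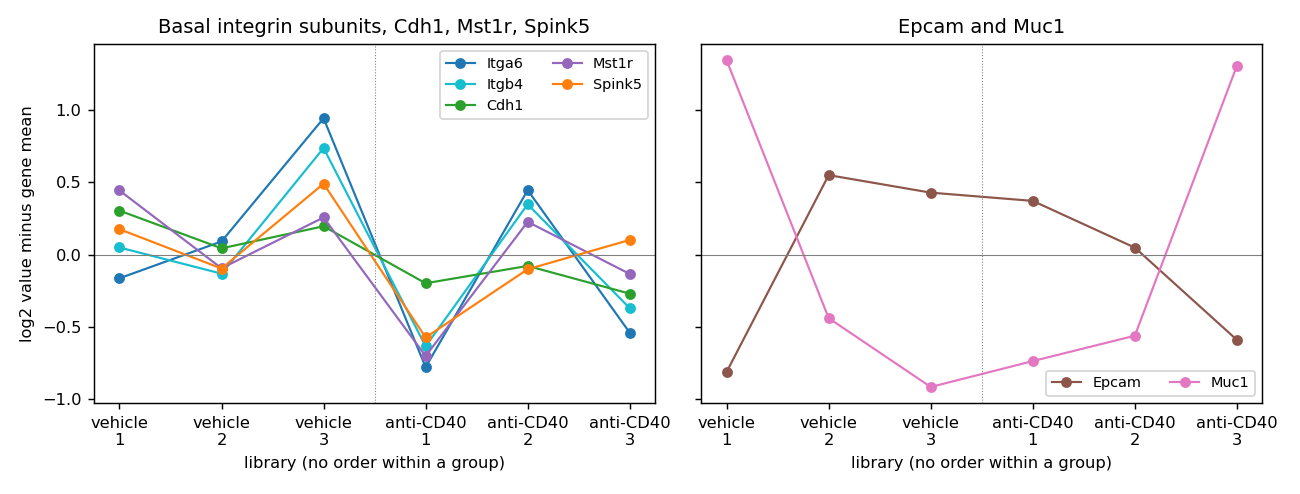
Log2 value minus the gene's mean over the 6 libraries (vertical axis) for each library (horizontal axis, no order within a group), with Itga6, Itgb4, Cdh1, Mst1r and Spink5 at the left and Epcam and Muc1 at the right; lines only join the points of a gene. Itga6 and Itgb4 run side by side, highest in vehicle 3 and lowest in anti-CD40 1, while Epcam is lowest in the 2 libraries, vehicle 1 and anti-CD40 3, in which Muc1 is highest.

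Mst1r encodes RON, the receptor tyrosine kinase for macrophage-stimulating protein, carried by epithelial cells and some macrophages. It was 8.80, 8.26 and 8.61 under vehicle, against 7.65, 8.58 and 8.22 under anti-CD40. Vehicle 1 was the highest and anti-CD40 1 the lowest, with anti-CD40 2 within the vehicle range. The difference was −0.40 (SE 0.30, 95% confidence interval −1.11 to 0.30, limma adjusted p = 0.974), −0.16 without anti-CD40 1 and −0.62 without anti-CD40 2. Its nearest genes by profile were the interleukin 13 receptor gene Il13ra1 (0.12), the MHC class I gene H2-K1 (0.14) and the kinase gene Ikbke (0.15).

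Spink5 encodes LEKTI, a secreted inhibitor of the kallikrein proteases that loosen the outer layers of stratified epithelium. It was 9.20, 8.93 and 9.51 under vehicle, against 8.45, 8.92 and 9.13 under anti-CD40. The highest library was vehicle 3 and the lowest anti-CD40 1, as for the α6 and β4 chains, and anti-CD40 3 lay within the vehicle range. The difference was −0.38 (SE 0.28, 95% confidence interval −1.02 to 0.26, limma adjusted p = 0.974), −0.19 without anti-CD40 1 and −0.23 without vehicle 3. Nearest by profile were the housekeeping gene G6pdx (0.11), Notch1 (0.18) and Nt5e, which encodes the ectonucleotidase CD73 (0.18). The nearest genes of Cdh1 were the kinase genes Map3k1 (0.093) and Ripk2 (0.115) with the RNA-binding protein gene Ewsr1 between them (0.11). These distances were not scaled by spread. A gene that varies little, such as Cdh1, therefore lies near other genes that vary little.

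Epcam and Muc1 had the profiles that lay farthest apart among the 8 genes (1.45), and both varied more within groups than between them. This pattern was picked after the values were seen. Epcam encodes an adhesion molecule of simple and glandular epithelia that carcinomas often carry. Muc1 encodes a transmembrane mucin of the apical surface of glandular epithelium. Epcam was 10.16, 11.52 and 11.40 under vehicle, against 11.34, 11.02 and 10.38 under anti-CD40. Muc1 was 8.27, 6.49 and 6.02 under vehicle, against 6.19, 6.37 and 8.23 under anti-CD40. The 2 libraries lowest in Epcam, 1 from each group, were the 2 highest in Muc1.

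In counts, Muc1 rested on 166 in vehicle 1 and 106 in anti-CD40 3, beside 26 to 35 in the other 4 libraries, where it was near background and at or below it in vehicle 2. Group means were 6.93 ± 1.19 and 6.93 ± 1.13, with a difference of 0.0065 (95% confidence interval −1.69 to 1.70, limma adjusted p = 0.997) that ran from −0.64 without anti-CD40 3 to 0.68 without vehicle 1. For Epcam the means were 11.03 ± 0.75 and 10.91 ± 0.49, a difference of −0.11 (95% confidence interval −1.12 to 0.89, limma adjusted p = 0.974). It was −0.55 without vehicle 1 and −0.33 without anti-CD40 1, and it turned positive without vehicle 2 (0.13), vehicle 3 (0.074) or anti-CD40 3 (0.15).

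Among the 517 other genes above background in all libraries, those nearest to Epcam were Cd1d1, the lipid-presenting molecule (0.24), Mfge8, a bridging protein for apoptotic cells (0.34), and the sialomucin gene Cd164 (0.35). Muc1 lay outside the rule for such neighbours, being above background in 5 libraries; the nearest to it were the chemokine gene Ccl8 (0.37) and the interferon-induced gene Ifi44 (0.41). Distances of that size are small beside the SD of Muc1 over the 6 libraries, 1.04.

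Genes of salivary gland varied widely between the same libraries. Dmbt1, which encodes salivary agglutinin, was 10.06, 16.96 and 13.83 under vehicle, against 17.23, 15.17 and 13.89 under anti-CD40. Ccl28, a chemokine of mucosal and salivary epithelium, was at or below background in vehicle 1, at 4.92, and between 6.83 and 9.37 in the other 5. Summed normalized counts of this list of 2 measured genes ran from 1086 to 127788 in vehicle and from 15240 to 154252 in anti-CD40 tumours, with neither at 0. Vehicle 1 was lowest in Epcam and in both gland genes. Anti-CD40 3, the next lowest in Epcam, was also the next lowest in Ccl28, at 6.83, and in Dmbt1 it stood beside vehicle 3. Yet Epcam was 11.40 in vehicle 3 and 10.38 in anti-CD40 3. Muc1, a mucin of glandular epithelium, was highest in vehicle 1 and anti-CD40 3. The part of gland tissue in the Epcam values was not tested.

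Promoter sequence is shown for these 2 genes because their profiles differed most. RefSeq promoter entries of build GRCm38.p6 were read for 4 of the 8 genes, Epcam, Muc1, Cd44 and Mst1r. Promoters of the other genes were not analysed here. The 250 bases before the annotated start were searched on both strands for the E-box CACCTG, whose reverse complement is CAGGTG and which repressors of the Snail family are known to bind. Matches are in capitals; the 2 forms do not overlap each other. Epcam lies on the plus strand at chr17:87635729-87635978, and Muc1 on the plus strand at chr3:89228806-89229055.
Epcam: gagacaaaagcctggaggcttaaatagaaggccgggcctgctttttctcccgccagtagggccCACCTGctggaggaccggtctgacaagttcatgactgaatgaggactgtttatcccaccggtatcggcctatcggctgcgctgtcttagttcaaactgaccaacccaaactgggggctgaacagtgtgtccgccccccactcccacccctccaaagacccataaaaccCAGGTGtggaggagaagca
Muc1: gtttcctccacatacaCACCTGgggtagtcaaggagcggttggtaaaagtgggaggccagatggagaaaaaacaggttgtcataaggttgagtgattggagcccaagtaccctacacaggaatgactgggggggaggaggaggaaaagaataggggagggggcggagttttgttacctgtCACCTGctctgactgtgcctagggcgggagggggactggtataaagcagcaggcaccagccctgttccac

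Each of the 2 windows held 2 matches, those of Epcam beginning 187 and 19 bases before the start and those of Muc1 234 and 70 bases before it. Of 32851 promoters in the same reference table, 17.2% held at least 1 match in this window and 2.1% at least 2. The windows of Cd44 and of both Mst1r starts held no such letters. A match of letters is a description of the sequence and does not show binding.

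Cd44 encodes a receptor for hyaluronan that epithelial cells, leukocytes and fibroblasts share. It was 6.75, 6.38 and 6.80 under vehicle, against 6.44, 6.87 and 6.37 under anti-CD40, from 24 to 62 counts. Vehicle 2 was at or below its background limit, and the groups overlapped almost wholly. The difference was −0.079 (95% confidence interval −0.66 to 0.50, limma adjusted p = 0.974), with values from −0.23 without anti-CD40 2 to 0.015 without anti-CD40 3.

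**Figure D3:**
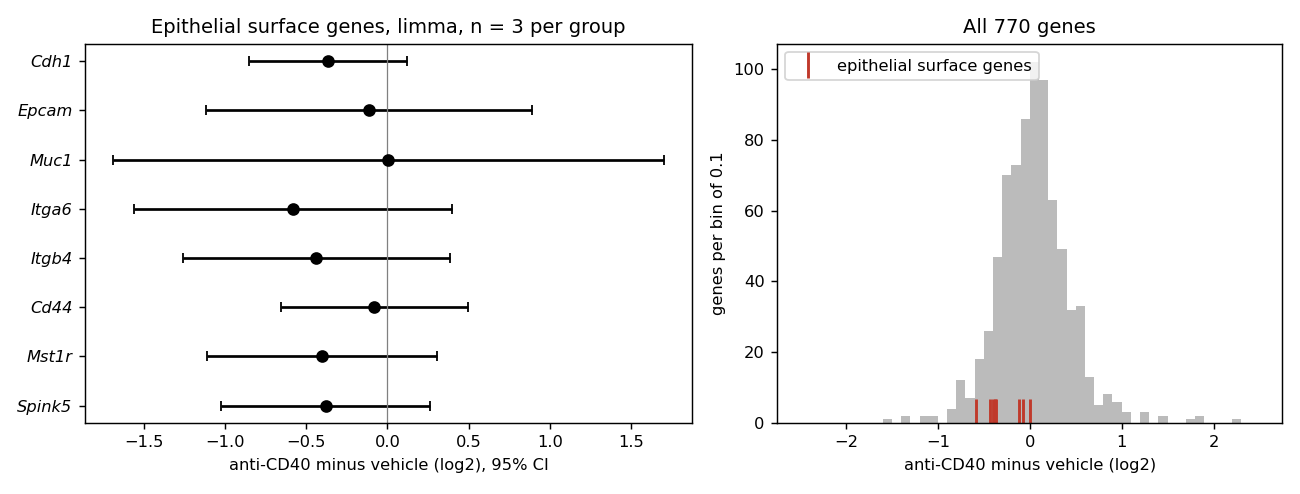
Left, difference between group means (anti-CD40 minus vehicle, log2) with its 95% confidence interval from limma for the 8 epithelial surface genes, n = 3 per group; right, the same difference for all 770 genes in bins of 0.1, with red ticks for the 8 genes. All 8 intervals include 0, and 7 of the 8 points lie below it.

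The measured genes of a list of squamous epithelium and barrier function lay mostly lower. Of 44 listed genes 13 were measured, Spink5 included. A lower mean in anti-CD40 tumours was found for 11 and a higher one for 2, where 45.5% of all 770 genes had a lower one. Like the 8 genes and the other lists, this list was chosen with earlier results of these data known. Its count is therefore only a description. The median was −0.29 (−0.18 without vehicle 1, −0.44 without anti-CD40 2), and 0 were called. The lower genes numbered 9 of 13 without vehicle 1, vehicle 2 or anti-CD40 3. With all libraries but without Spink5 they were 10 of 12, with a median of −0.26. Ccl20, which encodes the epithelial chemokine that binds Ccr6, was 8.18, 8.11 and 7.65 under vehicle, against 6.15, 7.47 and 6.27 under anti-CD40. Its groups did not overlap, and it differed by −1.35 (limma adjusted p = 0.974). Il1rn, which encodes the interleukin 1 receptor antagonist, was 11.55 ± 0.37 and 10.89 ± 0.80 and overlapped between groups; the difference, −0.66, came to −0.39 without anti-CD40 3 and −1.12 without anti-CD40 2. Il1a, which encodes the epithelial alarmin interleukin 1α, was 8.25 ± 0.56 and 7.78 ± 0.04, a mean gap of −0.47, or −0.28 when vehicle 2 and −0.79 when vehicle 3 was left out. The list also holds genes that neutrophils make, S100a8 and Lcn2, and it is no measure of squamous cells alone.

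Junction and polarity genes outside the 8 were mixed. Of 5 measured, 1 was lower and 4 were higher, with a median of 0.12. Leaving out vehicle 3 or anti-CD40 1 made it 3 of 5 lower, with medians of −0.13 and −0.12. Pvr, which encodes the nectin-like poliovirus receptor, had the lowest p of these, at 7.93 ± 0.27 and 8.32 ± 0.30, 0.39 apart, or 0.24 when anti-CD40 1 was left out.

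Known partners of the 8 proteins were mixed. Of 15 measured, 8 were lower and 7 higher, with a median of −0.068 that was 0.12, 0.19, 0.11 and 0.0071 without vehicle 1, vehicle 2, anti-CD40 1 and anti-CD40 3, and −0.15 without vehicle 3. Itgae, whose αE chain lets lymphocytes bind E-cadherin, was 7.17 ± 0.39 and 6.79 ± 0.37, which gave −0.38, or −0.19, −0.17 and −0.58 when vehicle 1, anti-CD40 1 or vehicle 3 was left out. Klrg1, an inhibitory lymphocyte receptor for E-cadherin, was above background in 1 library. Itgb1, which encodes the β1 chain that also pairs with α6, was 12.54 ± 0.14 and 12.82 ± 0.19, 0.29 apart with no overlap of the groups (0.18 without anti-CD40 1). Groups without overlap in the higher direction were found for 6.75% of all genes. Lyve1, a hyaluronan receptor like Cd44, was 8.18 ± 0.19 and 9.06 ± 0.44, 0.88 apart and also without overlap (0.67 without anti-CD40 1). Fibronectin, Fn1, was 12.35 ± 0.27 and 12.65 ± 0.16, 0.30 apart and 0.15 without vehicle 3. Limma called none of them (adjusted p = 0.974 for Itgae, Itgb1, Lyve1 and Fn1).

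Among 34 genes of receptor kinases and carcinoma signalling other than Mst1r, 10 were lower and 24 higher, with a median of 0.12 and 0 called. Notch1, a receptor that drives squamous differentiation, was 11.14, 10.90 and 11.40 under vehicle, against 10.42, 10.87 and 10.60 under anti-CD40. Its groups did not overlap, if narrowly, and it differed by −0.52. The inhibitor of apoptosis gene Birc5 was 8.82 ± 0.09 and 7.82 ± 0.39, also without overlap. In the other direction, Axl, a receptor kinase of mesenchymal and myeloid cells, was 10.99 ± 0.12 and 11.55 ± 0.23, and Smad3, which carries TGF-β signals, was 10.24 ± 0.11 and 10.87 ± 0.43. Both had groups without overlap, and all 4 genes had a limma adjusted p of 0.974.

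Genes of epithelial-mesenchymal transition, the programme in which epithelial cells lose junctions and gain matrix genes, lay higher in 8 of 10 cases. Their median was 0.30 (0.14 without vehicle 3), with 0 called. Over all 770 genes, 45.5% had a lower mean. Vim and Twist1 differed by only 0.019 and 0.11, and the 2 lower genes were Tgfb1 (−0.034) and Tgfb2 (−0.050). Fn1 stands in the fibroblast list as well. Snai1, which encodes a repressor of Cdh1 transcription, was 6.41, 6.32 and 5.98 under vehicle, against 6.48, 7.19 and 6.83 under anti-CD40. Its groups did not overlap, although it rested on 23 to 58 counts and was at or below background in vehicle 2. The difference was 0.60 (limma adjusted p = 0.974). Itga5, the fibronectin receptor chain, was 7.57 ± 0.29 and 8.17 ± 0.07, without overlap. Thbs1, thrombospondin 1, overlapped at 10.20 ± 0.40 and 11.03 ± 1.04 (0.83, or 0.31 and 1.35 when anti-CD40 3 or anti-CD40 2 was left out), and Tgfb3 differed by 0.30.

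**Figure D4:**
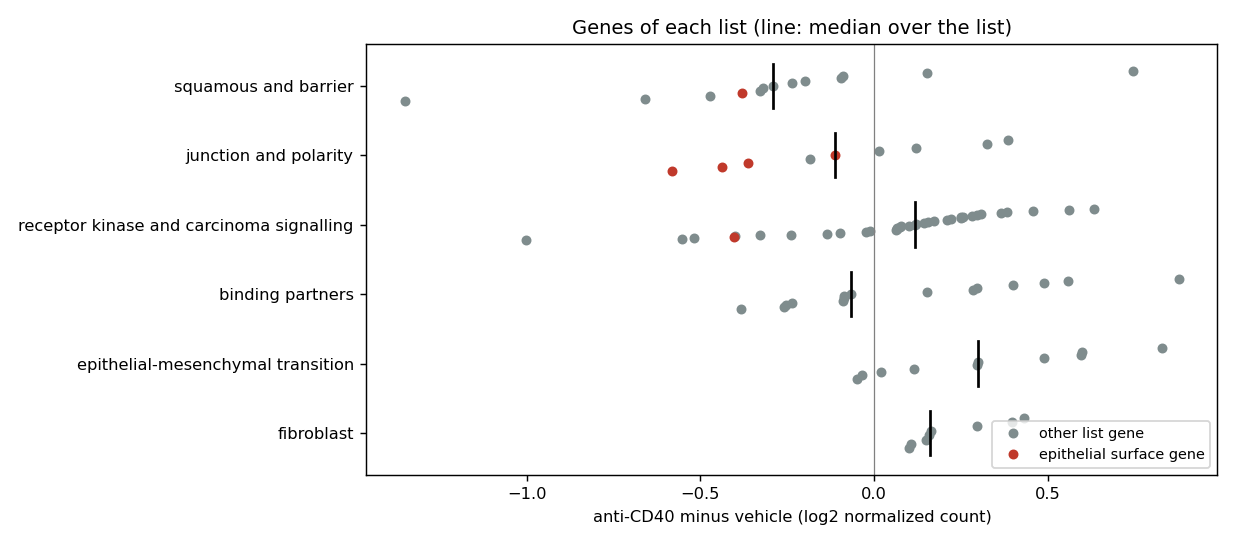
Difference between group means (anti-CD40 minus vehicle, log2 normalized count) of every measured gene of 6 lists, with the 8 epithelial surface genes in red where a list holds them and a black line at each list's median. Squamous and barrier genes sit mostly left of 0 (11 of 13, or 9 of 13 without vehicle 1). Epithelial-mesenchymal transition genes (8 of 10) and fibroblast genes (8 of 8, or 5 of 8 without vehicle 3) sit mostly right of it. Genes can stand in several lists, and no gene passed the test.

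Markers of other cell types were read beside these values. In bulk tumour RNA, fewer cells of a type and less RNA per cell cannot be told apart. Fibroblast genes had a higher mean in 8 of 8 cases, but in 5 of 8 without vehicle 3 and in 7 of 8 without vehicle 1 or any 1 of the anti-CD40 libraries. Their median of 0.16 was 0.043 without vehicle 3 and 0.44 without vehicle 2. Their summed normalized counts ran from 22153 to 38857 in vehicle and from 31575 to 44228 in anti-CD40 tumours, and none was at 0. Summed over the 8 epithelial surface genes, the range was 16403 to 24942 in vehicle and 12530 to 18888 in anti-CD40 tumours. Vehicle 3, the library highest in Itga6, Itgb4 and Spink5, was the lowest in the fibroblast sum and in the sum of 9 pan-leukocyte genes.

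Leukocyte and endothelial lists had no direction that held with every library left out in turn. The pan-leukocyte sum ran from 3197 to 6595 in vehicle and from 3257 to 5692 in anti-CD40 tumours; 3 of 9 genes were higher, but 6 of 9 without anti-CD40 3 and 0 of 9 without vehicle 3 or without anti-CD40 2. Of 10 endothelial genes 7 were higher, but 4 without vehicle 3 (median 0.18 and −0.066), with sums of 5806 to 8992 and 6698 to 9945. Of 12 myeloid genes 8 were higher, but 6 without vehicle 3 (median 0.25 and −0.039), with sums of 36657 to 162824 and 43589 to 163660. Most of each myeloid sum came from S100a8 alone, at 16.22 ± 1.25 and 16.13 ± 1.23. That gene also stands in the squamous and barrier list. Of 14 lymphocyte genes 4 were higher, but 8 without vehicle 2 (median −0.066 and 0.21) and 7 without anti-CD40 1 or anti-CD40 3, with sums of 642 to 1612 and 658 to 1255. Only 3 of the 14 lymphocyte genes were above background in all libraries, and the lymphocyte sums hold values at or below it. No gene of these 4 lists was at 0 in all libraries. The part of these cell types in the lower epithelial values was not tested.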

How the data were processed

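For 6 samples the authors deposited log2 values of normalized counts, covering 770 genes, 6 positive and 8 negative controls. Platform, counting software and scaling rule are not stated in the labels or the table. Each deposited log2 value was the logarithm of a library factor (1.72 to 3.28) times a whole count plus 4.55; all 4704 values came out whole within 0.05 counts. The offset understates differences of genes with few counts. Libraries held 548 to 649 genes above background.

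Groups were compared with limma 3.58.1 in R 4.3.3 (lmFit, eBayes, two-sided, 4 residual degrees of freedom) on all 770 genes of the 6 samples, p-values being adjusted by Benjamini-Hochberg and called at 0.05. The fit was checked on simulated data with changes larger than the differences of the 8 genes. That check does not tell how often smaller differences would be called. Python 3.11.15 and pandas 2.3.3 gave profiles and counts. The genes and lists were chosen with earlier results of these data known. Genes given with values were the 8, up to 4 genes of lowest p per list, and the 3 nearest profiles by root mean square distance over 6 libraries. Other measured genes of the lists could be named without values. Ccl8, Ifi44, Vim, Twist1, Tgfb1, Tgfb2 and the values of S100a8 were added after their values were seen. Alternatives were other scalings, filters, pseudocounts and tests, the replicate number as a block, and each library left out.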

Additional observations from a re-analysis of the deposited data

How the results depend on the processing

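None of the 8 epithelial surface genes was called in any of the 15 alternative fits, and Cdh1, Itga6, Itgb4, Spink5 and Mst1r kept a lower mean in each. Lower means numbered 6 to 8 of the 8, in recounts added after the data were seen, as were those of the lists. Over all genes, limma called 1 gene, Masp2, when the negative controls were subtracted with a floor of 1; it was above background in no library. Muc1 turned negative after quantile normalization (−0.027), median centring (−0.011), subtraction of negative controls (−0.092) and with limma-voom (−0.096). With 1 library left out, its difference ranged from −0.64 to 0.68, that of Epcam from −0.55 to 0.15 and that of Cd44 from −0.23 to 0.015. The median difference of the 8 then ranged from −0.48 to −0.21. For the gap between Itga6 and Itgb4, the difference between group means ranged from −0.29 to −0.069. The labels do not say whether numbers 1 to 3 pair the samples. Deviations of same-numbered libraries correlated at −0.35, −0.034 and 0.18 across genes, which cannot decide how the samples were taken. With the replicate block limma called 0 genes, the median of the 8 was −0.37 and the lowest adjusted p was 0.964. Counts of 23 to 62 limit Cd44, Snai1 and, outside 2 libraries, Muc1.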
